A study of Arabidopsis thaliana with 12 samples.

Results

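FBL17 and the histone H3 genes AT1G09200, AT1G13370 and AT5G65360 are 4 genes of cell cycle entry and chromatin. Each has a probe on this array whose annotation lists no other gene, though that of AT5G65360 gave no usable level. The 4 genes were taken as the probes whose platform annotation lists 1 gene and whose symbol is one of these 4. This gave 4 probes among 692 with 1 gene and 3439 in all. Whether these probes also bind transcripts of related genes was not tested. The samples were total RNA of wild-type Arabidopsis thaliana, ecotype Landsberg, in 2 groups of 6: plants given 50 µM paraquat and plants given water. All had a dark period of 12 h and then 30 min of light. Paraquat is a bipyridinium herbicide that draws electrons from photosystem I and hands them to oxygen, so that reactive oxygen forms in the light. The labels name neither the tissue nor the age of the plants, and they do not say whether the samples numbered 1 to 6 were separate plants or repeated readings, so that the errors and p-values given here cover only how far these samples lie apart, whatever its source.

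FBL17 is the F-box subunit of an SCF ubiquitin ligase, the part of the complex that selects the protein to be marked for degradation. Its known targets are the KRP proteins, inhibitors of the cyclin-dependent kinases. Their removal lets cells enter the phase of DNA synthesis, a role first described in the male germ line of Arabidopsis and later in dividing somatic cells. Histone H3 is 1 of the core proteins of the nucleosome. Plants carry a replication-coupled form, H3.1, made mainly while DNA is copied, and a replacement form, H3.3, placed on chromatin throughout the cell cycle, above all in transcribed genes.

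The values are array intensities on the authors' linear scale. Column medians lay between 0.563 and 0.635 under paraquat and between 0.443 and 0.491 under water, and the columns were therefore quantile normalized before fold changes were taken. Each column held exact zeros, 129 to 148 under paraquat and 108 to 131 under water, and the 5th percentile of all values above 0 was 0.118. Fold changes are log2 values of paraquat over water with their standard errors (SE, n = 6 per group) from limma, fitted over all 3439 probes. Over all probes their median was -0.04. It moved to 0.19 without normalization and to -0.16 when columns were centred on their medians, so each direction holds relative to the bulk of the probes. Of 15 markers of plant organs and cell types listed for these samples, 1 had a probe of its own, LHB1B2, an antenna protein of green tissue. Its intensity lay between 9.26 and 13.1 under paraquat and between 15.4 and 23.3 under water. Its log2 fold change was -0.66 ± 0.13 (limma, adjusted p = 0.00141) and -0.20 once each sample was centred by probe place (limma, adjusted p = 0.352).

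FBL17 was higher under paraquat, AT1G09200 was lower, AT1G13370 showed overlapping values, and the probe of AT5G65360 gave no usable level. These 4 genes were chosen by their names with the intensities and fold changes of paraquat over water already known, so the values of this contrast are a description and carry no test. For the same reason nothing is read from the count of calls: 2 of the 3 genes with a level, FBL17 and AT1G09200, passed the limma threshold of 0.05 on the adjusted p, as did 52.5% of all probes. With centring by place, described further on, 3 of 3 passed, AT1G13370 among them as lower, beside 47.1% of all probes.

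**Figure D1:**
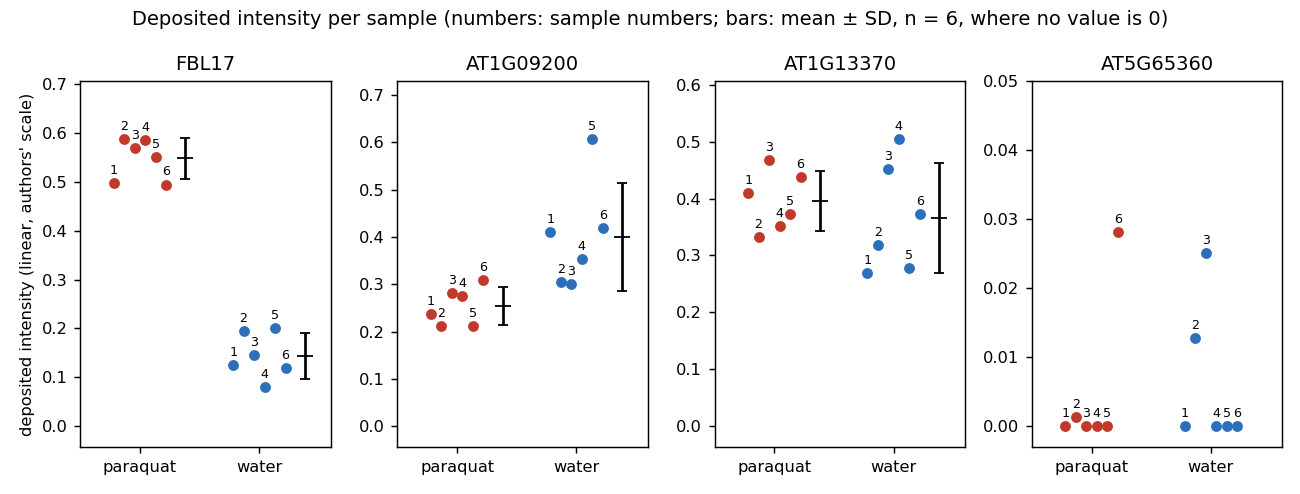
Deposited intensity (linear scale, vertical axis) of the 4 genes in each sample, paraquat at left and water at right, with sample numbers beside the points and the mean ± SD of 6 samples where no value is 0. All 6 paraquat points of FBL17 lie at or above 0.494 and all 6 water points at or below 0.200, while AT5G65360 is listed at 0 in 4 samples of each group.

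The FBL17 probe had a lowest, median and highest deposited intensity of 0.494, 0.561 and 0.588 under paraquat, against 0.0807, 0.135 and 0.200 under water. The groups did not overlap, and the lowest paraquat sample stood well clear of the highest water sample. Deposited values were likewise higher without overlap for 20.8% of all probes. The mean was 0.548 ± 0.042 under paraquat and 0.144 ± 0.046 under water (SD, n = 6 each). After normalization the log2 fold change was 1.93 ± 0.28 (SE, n = 6 per group), which is 3.81-fold.

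The FBL17 probe also differed in its place within the column. Under paraquat the probe stood between the 40.0th and the 50.4th percentile of its column, near the middle of the array. Under water it stood between the 5.64th and the 16.7th percentile, and 1 of the 6 water samples, number 4, was below the 5th percentile of values above 0. Adding a pseudocount of 0.1 to every normalized intensity, which shrinks the fold of any dim probe, brought the log2 fold change to 1.33. The size of the fold thus depends on how dim values are treated. Whether the dim water readings are reliable was not tested.

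The spread of FBL17 was also unequal between the groups. Its SD on the log2 scale was 0.125 under paraquat and 0.712 under water. Among probes whose group mean lay within 0.5 of that of FBL17 on the log2 scale, the median SD was 0.234 under paraquat (1157 probes) and 0.653 under water (224 probes). The wide water spread of FBL17 was thus close to that of probes equally dim under water.

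Same-numbered samples were set against each other because their deviations from the group means went together across the array. The FBL17 ratio of paraquat to water, on normalized values, was 3.35, 2.32, 4.27, 9.49, 2.45 and 3.98 for numbers 1 to 6. All 6 ratios lay above 1, as they did for 24.4% of all probes, and the ratio for number 4 was set apart by the dimmest water sample. Without water sample 4 the log2 fold change was 1.72, the lowest value when any 1 sample was left out, and without water sample 5 it was 2.10, the highest.

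Log2 values of samples with neighbouring numbers correlated at 0.920 to 0.949 under paraquat, against 0.876 to 0.929 for other numbers. Under water these ranges were 0.859 to 0.937 and 0.756 to 0.866 (3186 probes without a zero). Neighbouring numbers may therefore be repeated readings, which the labels do not settle. Averaged over numbers 1 and 2, 3 and 4, and 5 and 6, FBL17 had intensities of 0.543, 0.578 and 0.523 under paraquat, against 0.160, 0.113 and 0.159 under water. The averages of the groups did not overlap, with paraquat higher, as in 30.5% of all probes.

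**Figure D2:**
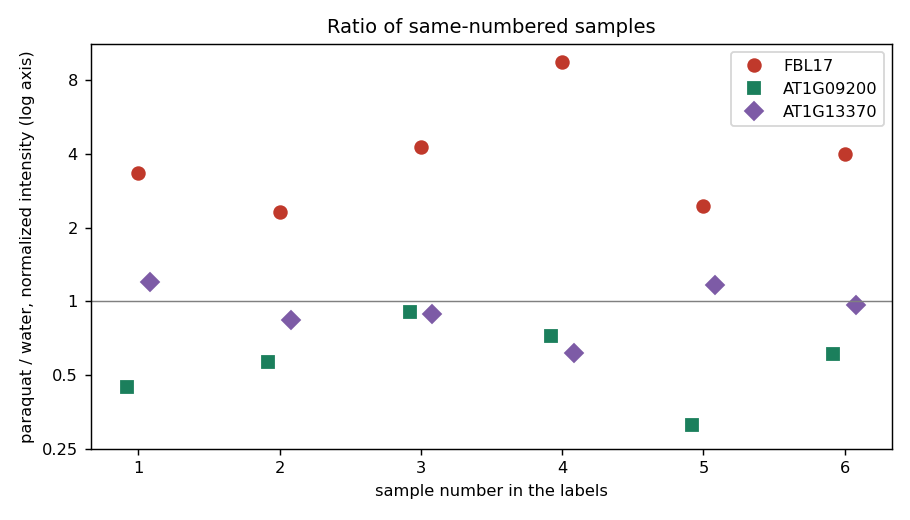
Ratio of paraquat to water for samples with the same number (horizontal axis), on normalized intensities and a log2 vertical axis. FBL17 lies above 1 in all 6 pairs, between 2.32 and 9.49, AT1G09200 lies below 1 in all 6, and AT1G13370 falls on both sides of 1.

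AT1G09200 encodes histone H3.1 per the RefSeq gene table. Its lowest, median and highest deposited intensity was 0.212, 0.256 and 0.308 under paraquat, against 0.300, 0.382 and 0.608 under water. The deposited ranges met at their edges, where paraquat sample 6 exceeded water samples 2 and 3. After normalization the groups no longer overlapped, with paraquat lower, a pattern found in 20.0% of all probes. The separation was narrow, with paraquat sample 6 at -1.77 and water sample 3 at -1.72 on the log2 scale. The mean deposited intensity was 0.254 ± 0.040 under paraquat and 0.400 ± 0.114 under water (SD, n = 6 each). The log2 fold change was -0.83 ± 0.19 (SE, n = 6 per group), so that water exceeded paraquat 1.78-fold.

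The ratio of paraquat to water for AT1G09200 was 0.449, 0.566, 0.903, 0.722, 0.313 and 0.608 for numbers 1 to 6. All 6 were below 1, as in 29.0% of all probes, but number 3 was close to it. The most distant ratio came from number 5, where the water sample was the brightest of all 12. Leaving out that water sample gave a log2 fold change of -0.70, and leaving out water sample 3 gave -0.94. In averages of neighbouring numbers the intensities were 0.225, 0.278 and 0.260 under paraquat, against 0.358, 0.327 and 0.514 under water. They did not overlap, with paraquat lower, as in 21.0% of all probes.

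Unlike FBL17, AT1G09200 had no value under the 5th percentile of values above 0 in either group. It stood between the 14.6th and the 24.7th percentile of its column under paraquat and between the 25.8th and the 63.0th under water. The paraquat range overlapped that of FBL17 under water, the 5.64th to the 16.7th. With the pseudocount of 0.1 the log2 fold change of AT1G09200 was -0.64. Its SD on the log2 scale was 0.233 under paraquat and 0.431 under water, against medians of 0.332 and 0.371 among probes of like level in the same group.

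AT1G13370 is a further histone H3 gene, for which the RefSeq gene table gives no variant name. Its lowest, median and highest deposited intensity was 0.333, 0.391 and 0.468 under paraquat, against 0.269, 0.346 and 0.505 under water. The paraquat samples lay inside the range of the water samples. The mean was 0.396 ± 0.053 under paraquat and 0.366 ± 0.096 under water (SD, n = 6 each), and the log2 fold change was -0.11 ± 0.16 (SE, n = 6 per group).

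The sign for AT1G13370 depended on the scaling, with -0.11 after quantile normalization, -0.20 with median centring and 0.14 on the values as deposited. After normalization the ratio of paraquat to water was 1.21, 0.836, 0.890, 0.615, 1.17 and 0.970 for numbers 1 to 6, which is above 1 in 2 pairs and below 1 in 4. On the deposited values it was above 1 in 5 pairs and below 1 in 1. The water samples fell apart by neighbouring numbers: averages were 0.293 for numbers 1 and 2, 0.479 for 3 and 4 and 0.325 for 5 and 6, against 0.372, 0.410 and 0.405 under paraquat. Numbers 3 and 4 under water thus stood above every paraquat average, and the other water averages stood below.

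AT5G65360 also encodes histone H3.1 per RefSeq. Its probe was listed at 0 in 4 of 6 samples under paraquat and in 4 of 6 under water. The samples above 0 were paraquat 2 and 6, at 0.00132 and 0.0282, and water 2 and 3, at 0.0127 and 0.0250. Every one of these is below the 5th percentile of values above 0, and the highest stood at percentile 5.03 of its column. No fold change is given, because both groups were at the floor. Of the 3439 probes, 127 were listed at 0 in at least 8 of the 12 samples and 20 in all. Most probes, 3186, had no zero in any sample. What AT5G65360 did under paraquat was not measurable here.

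The histone H3 family has further probes whose annotation lists several H3 genes each. These were not used to choose the 4 genes, but were added after their group means had been seen. The p-values given for them are thus a description and carry no test. No single gene can be named from them. Of 4 such probes, 0 rose and 3 fell under paraquat in the limma fit, with a median log2 fold change of -0.66. Over all 3439 probes 24.0% rose and 28.5% fell, with a median of -0.04. In bulk RNA of this kind a lower histone signal cannot be told apart into fewer cells in a given phase and less transcript per cell.

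The probe numbered 3667 lists 2 H3.1 genes other than AT1G09200 and AT5G65360. Its lowest, median and highest intensity was 0.555, 0.681 and 0.716 under paraquat, against 0.705, 0.935 and 1.10 under water. Only water sample 6 fell into the paraquat range, and after normalization the groups did not overlap, as for 20.0% of all probes in this direction. Its log2 fold change was -0.75 ± 0.11 (SE, n = 6 per group; limma, adjusted p = 0.000119), lower in all 6 numbered pairs, as were 29.0% of all probes. The value for the single-gene H3.1 probe, AT1G09200, was -0.83 ± 0.19.

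The replacement form H3.3 was represented by a pair of probes whose annotations share genes. The probe numbered 3127, with 2 H3.3 genes, had 0.735, 0.765 and 1.03 under paraquat, against 0.896, 1.03 and 1.24 under water (lowest, median and highest). Paraquat sample 5 was the one that reached into the water range. Its log2 fold change was -0.66 ± 0.12 (SE, n = 6 per group; limma, adjusted p = 0.00061), lower in all 6 numbered pairs, as were 29.0% of all probes.

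The probe numbered 2392 lists the same 2 genes and a further H3.3 gene. It had 0.919, 1.08 and 1.41 under paraquat, against 1.44, 1.48 and 1.90 under water. The groups did not overlap, as for 14.6% of all probes in this direction, although paraquat samples 5 and 6 came close to the water range. Its log2 fold change was -0.65 ± 0.16 (SE, n = 6 per group; limma, adjusted p = 0.00417), lower in all 6 numbered pairs, as were 29.0% of all probes. The call was lost with neighbouring numbers averaged (limma, adjusted p = 0.0798), also with their pair as a block (0.118), and with centring by place (limma, adjusted p = 0.423). Over the 11 alternative settings the adjusted p ran from 0.000885 to 0.611. By contrast the probes 3127 and 3667 kept theirs under all 11 alternative settings and each of the 12 fits with 1 sample left out.

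The last of the H3 probes, numbered 2995, lists the centromeric H3, which marks the site of kinetochore assembly, together with an H3 of the male gametes. It had 0.354, 0.432 and 0.601 under paraquat, against 0.179, 0.260 and 0.470 under water, with overlapping groups. The log2 fold change was 0.44 ± 0.23 (SE, n = 6 per group; limma, adjusted p = 0.129), higher in 5 of 6 numbered pairs. It passed on the values as deposited (0.68; limma, adjusted p = 0.0296) and without water sample 4 (0.60; limma, adjusted p = 0.0245), and was at -0.06 after centring by place. A further probe lists an H3.1 gene together with a gene of another family. It was at 0.47 ± 0.22 (SE, n = 6 per group; limma, adjusted p = 0.0886), higher in 5 of 6 numbered pairs, and so did not share the direction of the other H3.1 probes with a level.

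**Figure D3:**
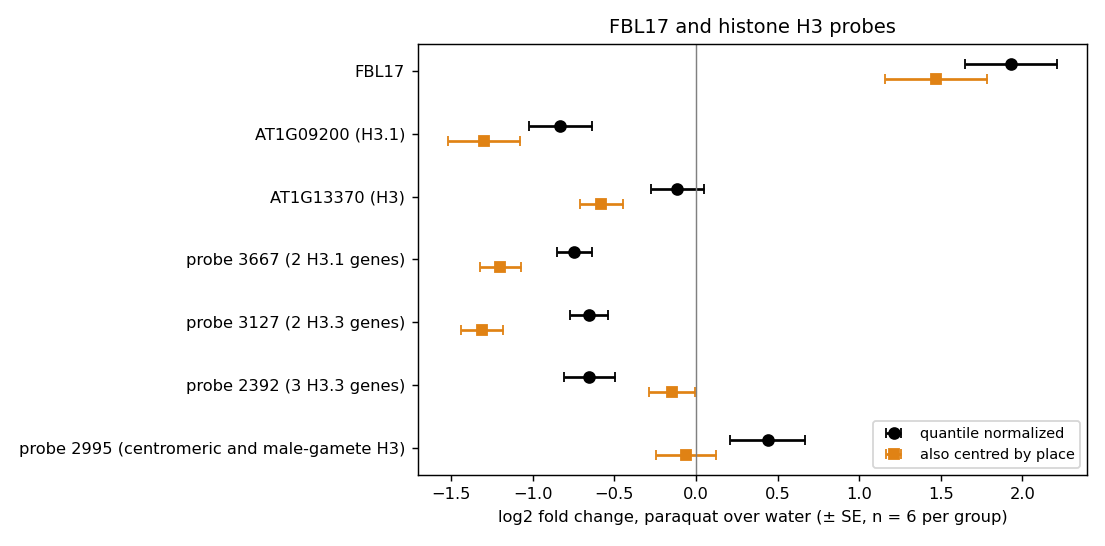
Log2 fold change of paraquat over water (horizontal axis, ± SE, n = 6 per group) for 3 single-gene probes and 4 probes listing several histone H3 genes, after quantile normalization (black circles) and after further centring by place (orange squares). FBL17 is at 1.93 and 1.47, AT1G09200 at -0.83 and -1.30, and the probe 2392 moves to -0.15 when centred.

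Fold changes on this array followed the probe number with a repeat of 288 numbers, and that bears on each of these genes. In 24 steps of 12 numbers, step medians of the log2 fold change over all probes ran from -0.76 to 0.65. FBL17 lay in a step with a median of 0.33, and AT1G09200 and AT1G13370 shared a step with a median of 0.39. The probe 2392 lay in a step with a median of -0.58, against 0.40 for the step of the probe 3667 and 0.53 for that of the probe 3127.

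After each sample was centred by the median of its step, FBL17 was at 1.47 ± 0.31 (SE, n = 6 per group), AT1G09200 at -1.30 ± 0.22 and AT1G13370 at -0.58 ± 0.13. The difference for FBL17 thus came out smaller than without centring, and those of both histone genes came out larger in the downward direction. For the probes of several H3 genes the centred values were -1.20 ± 0.12 for 3667, -1.31 ± 0.13 for 3127 and -0.15 ± 0.14 for 2392. The H3.3 probes 3127 and 2392, at equal values before centring, were therefore far apart after it, although their annotations share genes. The part of probe place in these differences was not tested.

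**Figure D4:**
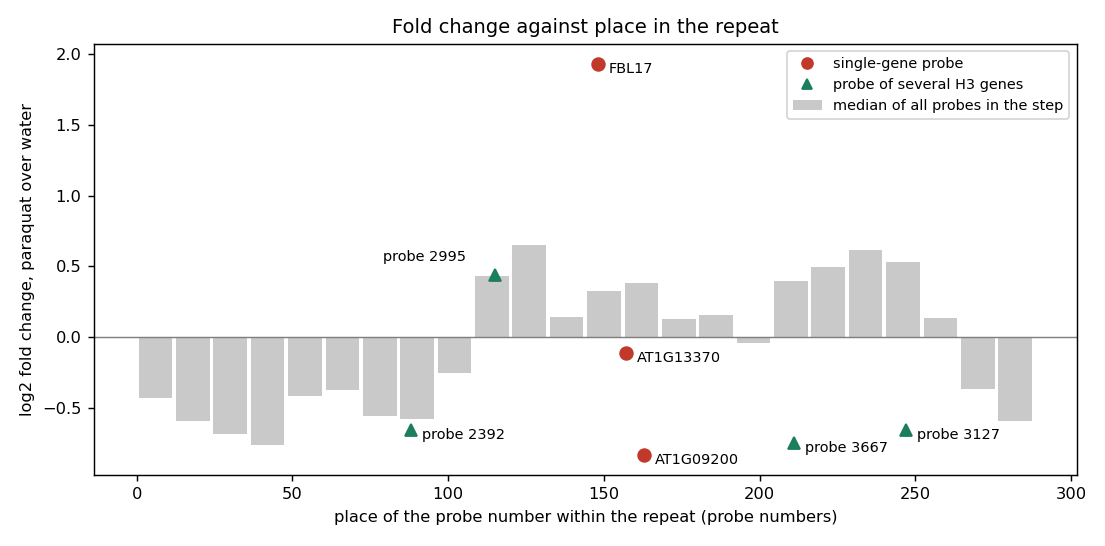
Log2 fold change of paraquat over water (vertical axis) against the place of the probe number within the repeat of 288 numbers (horizontal axis). Grey bars are the medians of all probes in each of 24 steps, red circles the single-gene probes and green triangles the probes of several histone H3 genes. FBL17, at 1.93, stands above its step's median of 0.33, and AT1G09200, at -0.83, stands below its step's median of 0.39.

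In the order of log2 fold changes over the 692 single-gene probes, FBL17 was the 23rd from the top, between AT2G28540 at 1.91 and AT5G44000 at 1.999. AT1G09200 was the 129th from the bottom, between AT3G12930 at -0.84 and AT4G16410 at -0.83. AT1G13370 lay near the middle, between CML30 at -0.12 and AT2G39360 at -0.11. Each of these neighbours differed from its member by less than the member's standard error.

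The single-gene probes most like each gene were sought among 635 without a zero, by Pearson's r of log2 values over the 12 samples, which includes the difference between the groups. For FBL17 they were AT1G19490 (r = 0.96), AT5G53920 (0.95) and AT1G22700 (0.95), with log2 fold changes of 1.89, 1.04 and 0.93. For AT1G09200 they were AT4G20760 (0.93), AT1G28150 (0.88) and AT2G23070 (0.87), with log2 fold changes of -0.48, -0.92 and -0.84. For AT1G13370 they were AT5G40050 (0.76), AT2G01400 (0.75) and AT5G53080 (0.74), with log2 fold changes of 0.06, -0.31 and -0.17. The samples behind these values share the normalization and possibly readings, and each r is the highest of many. The r values were also taken without centring by place. With the 24 steps numbered from 0, AT1G13370 lay in step 13 and its matches in steps 14, 13 and 16. FBL17 lay in step 12 (matches in 20, 9 and 4) and AT1G09200 in step 13 (matches in 16, 14 and 22). The part of probe place in these r values was not tested.

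With the group means taken off, AT1G22700 came first for FBL17 (r = 0.85 over 12 samples), followed by AT5G59400 (0.82) and AT1G33250 (0.78). AT4G20760 remained the one most like AT1G09200 (0.80), ahead of AT2G46050 (0.79) and APS4 (0.74). AT1G13370 was followed most closely by AT3G25410 (0.84), AT5G40050 (0.81) and AT1G32520 (0.80). AT1G22700, AT4G20760 and AT5G40050 were thus the ones named by both measures. The probes named here for AT1G13370 again lay near it in the repeat, in steps 15, 14 and 12. Those for FBL17 lay in steps 4, 10 and 8, and those for AT1G09200 in steps 16, 21 and 3.

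The rest of the cell cycle could not be followed. Lists of 112 further genes, covering histones H2A, H2B, H4 and H1, SCF subunits and KRP inhibitors, kinases, cyclins and the E2F and RBR regulators, and DNA replication, had 0 genes with a probe of any kind in the annotation used. The targets of FBL17 and the other core histones were therefore not analysed here. Of 14 histone H3 genes listed, 11 appeared in the annotation of some probe and 3 had a probe of their own.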

How the data were processed

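Each of the 12 samples is a column of array intensities. The authors deposited these intensities on a linear scale. Column means lay between 1.01 and 1.07 under paraquat and between 0.944 and 0.966 under water. The scanner, background correction and any scaling before deposit are not given in the sources used here. Each zero was replaced by the smallest nonzero value in its column. Because deposited medians differed between the groups, columns were quantile normalized before log2 was taken. Paraquat and water were compared by a two-sided moderated test (limma 3.58.1, R 4.3.3; lmFit, then eBayes) that had no block, and p-values were adjusted over 3439 probes by the Benjamini-Hochberg method. The number of arrays limits the precision.

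The platform annotation named the probes (692 with 1 gene, 870 with several, 1877 not listed), with symbols from RefSeq TAIR10.1. The genes and lists were chosen with earlier results of these data known. Named genes are the 4 members, listed genes with a probe of their own, the 3 probes most alike by either measure and the neighbours in order of fold change.

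Deviations of same-numbered samples from their group means correlated at 0.337 to 0.505 over 3186 probes. By the rule that every pair must exceed 0.1, equal numbers are taken as pairs. This comes from the data, not the labels. The repeat in probe number was sought among lengths from 96 to 480 numbers, on log2 fold changes capped at 2 in either direction. The length of 288 accounted for the largest share of their variance (22.3%, against at most 4.85% for the other lengths tried). Alternatives covered normalization, zeros, dim probes, the replicate block, averaged neighbours, probe place and single samples left out.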

Additional observations from a re-analysis of the deposited data

Results flagged for a closer look

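Dixon's test for a single distant value, at the 95% level, picked out 1 sample in 3 of 18 groups, and about 1 group in 20 is picked out by chance. For AT5G65360 it was paraquat sample 6, at an intensity of 0.0282 where the other 5 paraquat samples were at or near 0. For the probe 3127, of 2 H3.3 genes, it was paraquat sample 5, which was high at 1.03. For the probe 3667, of 2 H3.1 genes, it was the same sample, which was low at 0.555. The AT5G65360 flag came from a group with 4 samples at 0 and 1 at 0.00132, so that the reading of 0.0282 stood alone. Water, with 4 samples at 0 and readings of 0.0127 and 0.0250, was not flagged. The rate of 1 in 20 does not apply to groups so largely at 0.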

How the results depend on the processing

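Of 3439 probes, 1805 passed. The count was 1160 with neighbouring numbers averaged and 910 when centring by place was joined with averaging and the pair as a replicate block; these fits rest on 3 values per group. It was 1964 with the replicate number as a block, which changed no call of the H3 probes. As deposited, 1111 probes were higher and 738 lower, against 826 and 979 after quantile normalization, 716 and 1115 with median centring and 877 and 929 with cyclic loess. FBL17 ranged from 1.33 to 1.99 and AT1G09200 from -1.30 to -0.62 over the 11 settings other than samples left out, without a change of sign. AT1G13370 ranged from -0.58 to 0.14. With 1 sample left out, the ranges were 1.72 to 2.10, -0.94 to -0.70 and -0.20 to -0.02, and the count of probes lay between 1681 and 1813. The cause was not tested. Dim water signals limit the size given for FBL17, and AT5G65360 had no level in either group.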

Other observations

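A probe that lists an H3.1 gene together with SDH2-1, a subunit of succinate dehydrogenase, lay exactly 288 probe numbers before that of AT1G09200 and so at the same place in the repeat. Its intensity was between 0.808 and 1.16 under paraquat and between 0.308 and 0.831 under water. Its log2 fold change was 0.47 ± 0.22 (SE, n = 6 per group; limma, adjusted p = 0.0886), beside -0.83 ± 0.19 for AT1G09200. After centring by place it was at 0.01 (limma, adjusted p = 0.979), beside -1.30 for AT1G09200, and without water sample 1 it was at 0.30 (limma, adjusted p = 0.139). It passed on the values as deposited (0.78; limma, adjusted p = 0.011) and without water sample 4 or 5 (limma, adjusted p = 0.0398 and 0.0492). Which of its genes the signal came from cannot be told from the annotation.

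With the group means taken off, the log2 values of FBL17 and AT1G13370 had a Pearson's r of -0.67 over the 12 samples, those of FBL17 and AT1G09200 one of 0.30, and those of the histone genes AT1G09200 and AT1G13370 one of -0.33. These are descriptions over samples that share the normalization and possibly readings. The FBL17 deviations were widest in water samples 4, 2 and 5, at -1.20, 0.75 and 0.72, against -0.20 to 0.12 under paraquat. The values of r with FBL17 thus rest mainly on its dim water readings.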
